A study of Rattus norvegicus with 42 samples.

Results

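The genes described here are 4 nuclear receptors of the oestrogen and progesterone branch in rat lung: Esr1 and Esr2, which encode oestrogen receptors alpha and beta, Pgr, the progesterone receptor, and Esrra, the oestrogen-related receptor alpha. They are 4 of the 30044 gene symbols that both count tables of the study hold, and all 4 were found. Esr1 was chosen by its measured levels, a late rise with silica that these same rats show on both diets, so its silica and time differences are given as a description with no test. The other 3 were added to see whether related receptors move, and their own values were tested. All 4 were chosen with earlier results of these data known, so the tests of the other 3 were not blind to those results.

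Expression was measured by sequencing total RNA, depleted of ribosomal RNA, from a piece of lung of 42 male Fischer 344 (F344/DuCrl) rats, bought at 3 months of age. Their food drew 18% (regular) or 60% (high-fat) of its energy from fat, from 2 weeks before exposure to the end, and they breathed air or crystalline silica (15 mg per cubic metre, 6 hours a day, 5 days, whole body). Lungs were taken 3 or 9 months after exposure. The 3-month groups held 4 air rats and 5 silica rats with regular food, and 5 of each with high-fat food. The 9-month groups held 6 air rats and 5 silica rats with regular food, and 6 of each with high-fat food. No group carried a transgene or a hormone treatment, only males were studied, and hormone levels were not analysed here. Libraries held 5143424 to 8259635 counts (3 months) or 3078216 to 8319382 counts (9 months), and the summed level of 7 alveolar type 2 cell markers was between 14895 and 38428 CPM (counts scaled to a common library size) in every 9-month rat. Different rats were used at each time, so time, age and table cannot be told apart.

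Oestrogen receptors sit in the cell as inactive complexes with Hsp90 chaperones. When they bind oestradiol they form pairs on DNA at oestrogen response elements and recruit coactivators or corepressors. Pgr is among the best-known genes that oestrogen receptor alpha switches on in the female reproductive tract, and both oestrogen receptors have been described in lung, in alveolar development and in inflammation. Esrra resembles them in sequence but binds no oestrogen, and with its coactivator Ppargc1a it drives genes of mitochondrial energy metabolism.

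The 250 bases before the RefSeq start of each gene (build GRCr8, which is later than the Rnor_6.0 build of the counts) are shown for Esr1 and Pgr, the members with the largest differences below, to set their upstream letters side by side. Capitals mark matches, on either strand, to any of 8 searched motifs: GGTCANNNTGACC (the full oestrogen response element), GGTCA (a single arm of it), TCAAGGTCA (the extended element that oestrogen-related receptors bind), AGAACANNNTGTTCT (the element of progesterone and corticoid receptors), TGANTCA (AP-1), GGGCGG (GC box), TATAAA and CCAAT. The single arm is part of the full element and of the extended one, so those matches can overlap.
Esr1, chr1:43641845-43642094, plus strand: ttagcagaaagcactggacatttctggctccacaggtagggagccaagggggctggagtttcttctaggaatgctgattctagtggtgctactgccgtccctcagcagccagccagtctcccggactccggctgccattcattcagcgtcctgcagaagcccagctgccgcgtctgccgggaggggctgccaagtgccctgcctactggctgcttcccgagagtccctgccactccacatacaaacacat
Pgr, chr8:14354148-14354397, plus strand: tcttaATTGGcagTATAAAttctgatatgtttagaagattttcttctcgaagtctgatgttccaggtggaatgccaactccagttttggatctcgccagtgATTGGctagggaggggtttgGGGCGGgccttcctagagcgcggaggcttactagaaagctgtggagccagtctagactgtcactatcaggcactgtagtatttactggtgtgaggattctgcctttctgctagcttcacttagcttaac

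The Esr1 window held none of the 8 motifs, and its start is that of 1 of the gene's transcripts. The Pgr window held TATAAA (first base at -237 from the start), CCAAT on the minus strand at -245 and -149, and GGGCGG at -129. Of 33469 RefSeq promoters of this length, 12.9% held TATAAA, 34% CCAAT, 30.5% GGGCGG, 35.4% GGTCA, 6.34% TGANTCA, 0.388% TCAAGGTCA, 0.0239% GGTCANNNTGACC and 0.012% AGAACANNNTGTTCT. Esr2 (chr6:100644710-100644959, minus strand) held GGTCA at -211 and -49. Esrra (chr1:213543306-213543555, minus strand) held GGGCGG at -197 and -129 and CCAAT at -193. GC content was 59.6% for Esr1, 46.8% for Pgr, 56.4% for Esr2 and 68.8% for Esrra, against a median of 51.2% over all promoters. A match is a run of letters, and no binding was measured.

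Esr1 stood about 12-fold higher with silica than in air 9 months after exposure, on both diets, and near the air level at 3 months. On the regular diet at 9 months, the 5 silica rats had 59.4, 68.1, 75.1, 106 and 118.98 CPM (library sizes for CPM were scaled by TMM, the trimmed mean of M values). The 6 air rats had a lowest value of 5.72, a median of 7.36 and a highest of 7.78 CPM. Every silica rat was thus far above every air rat, and the silica rats spread more among themselves. The silica rats averaged 85.6 ± 25.7 CPM (SD, n = 5) and the air rats 7.10 ± 0.76 CPM (n = 6), which is 3.61 ± 0.16 (SE) on the log2 scale, or 12.2-fold. These levels rest on 299 to 688 reads per silica rat and 33 to 53 per air rat.

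On the high-fat diet at 9 months, the lowest, median and highest of the 6 silica rats were 83.2, 88.7 and 107 CPM. In the 6 air rats they were 5.40, 7.40 and 10.1 CPM. The groups again stood apart, with silica rats closer together than on the regular diet. Means of 92.4 ± 9.97 CPM (SD, n = 6) and 7.67 ± 1.59 CPM (n = 6) gave a log2 fold change of 3.61 ± 0.15 (SE), or 12.2-fold. The difference between the silica effects of the diets was -0.0011 ± 0.19 on the log2 scale. Of 15276 genes tested at 9 months, 33 on the regular and 37 on the high-fat diet had a log2 fold change at least as large as that of Esr1, Esr1 included.

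At 3 months Esr1 showed no such gap. Air rats on the regular diet had 4.48, 4.804, 6.76 and 7.36 CPM, and silica rats 5.06, 5.58, 6.93, 8.42 and 9.21 CPM. High-fat air rats had 4.85, 5.83, 6.15, 6.47 and 7.04 CPM, and high-fat silica rats 4.79, 6.21, 6.33, 7.82 and 8.04 CPM. The silica and air rats overlapped on both diets, with log2 fold changes of 0.25 ± 0.20 and 0.12 ± 0.19. The silica effect at 9 months exceeded that at 3 months by 3.35 ± 0.30 on the regular and 3.49 ± 0.28 on the high-fat diet, and 19 and 14 of 15759 genes had a time difference this large or larger. In the order of the 8 group means, from 92.4 down to 5.85 CPM (3-month air rats on the regular diet), the 2 silica groups of 9 months came first and overlapped each other. The only neighbours in that order whose rats did not overlap were the regular-diet silica rats and the high-fat air rats of 9 months. The remaining 6 groups overlapped their neighbours.

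**Figure D1:**
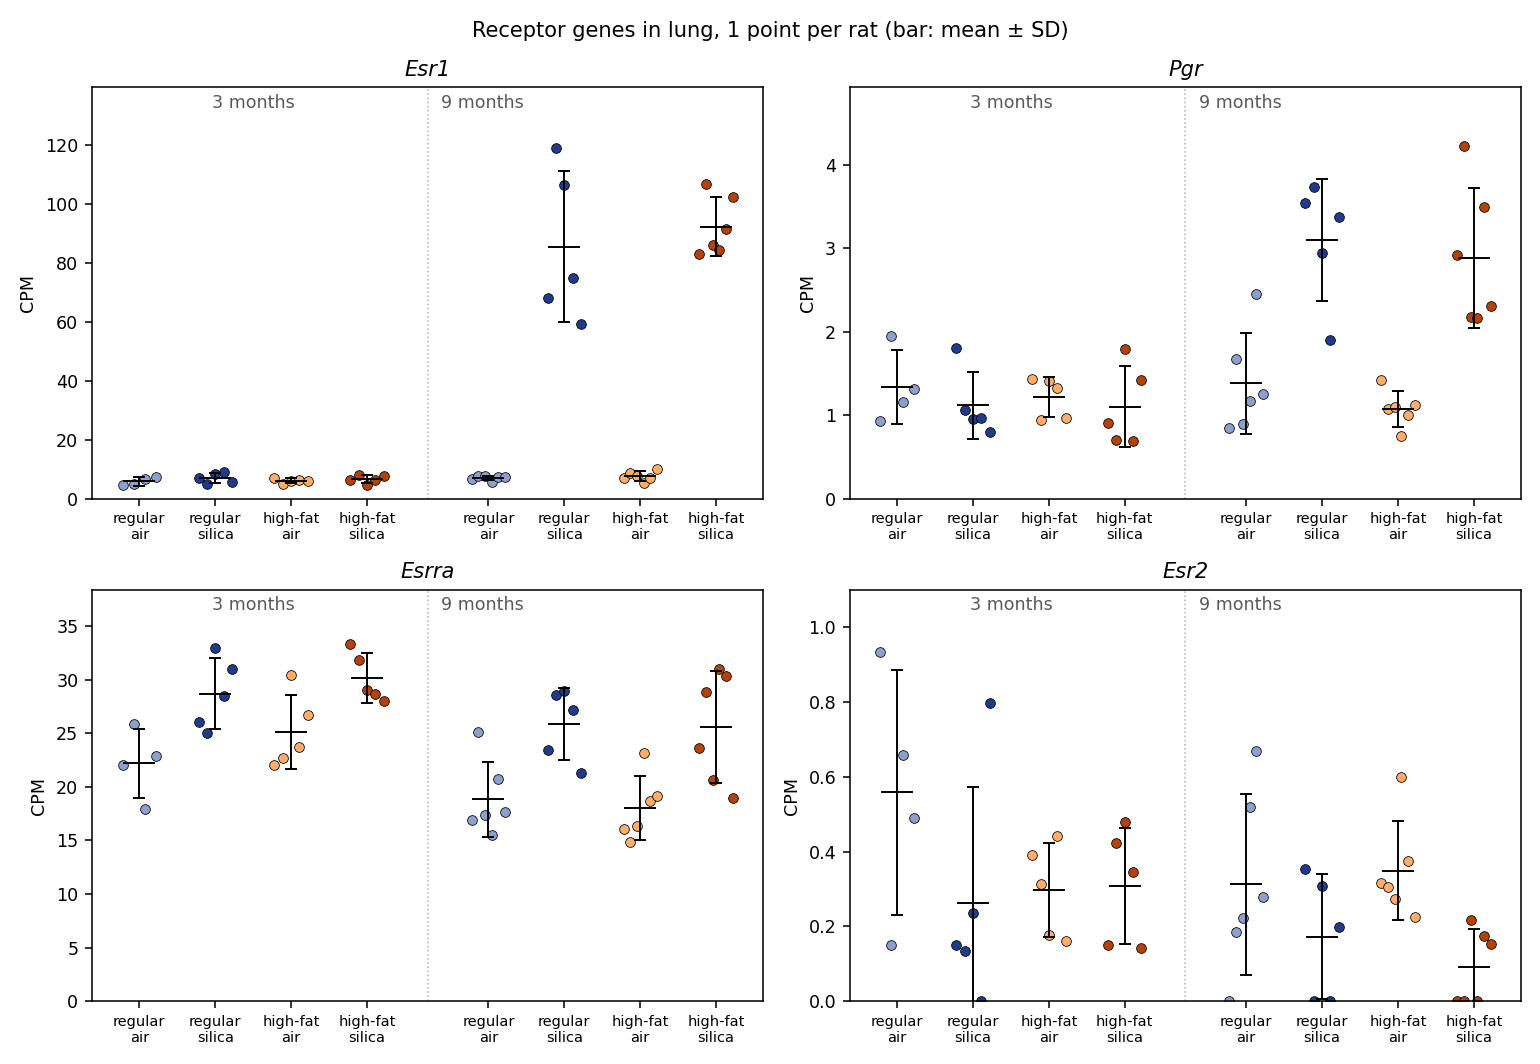
Levels of Esr1, Esr2, Pgr and Esrra in CPM in each of the 42 rats (points), by diet and exposure, 3 months on the left and 9 months on the right of each panel, with the group mean and SD as bars. Esr1 separates the 9-month silica rats (59.4 to 118.98 CPM) from every other rat (at most 10.1 CPM), and the other 3 genes have smaller or no gaps.

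Diet did not move Esr1 past the test. The diet contrasts themselves were not used to choose Esr1, but they compare rats whose silica differences were. This holds most directly for the 9-month silica rats, so their diet contrast is not independent of the choice. With edgeR's quasi-likelihood test and Benjamini-Hochberg adjustment over all genes, high-fat minus regular diet gave log2 fold changes of 0.06 (adjusted p = 0.913) in air and -0.08 (adjusted p = 0.903) with silica at 3 months. At 9 months they were 0.11 ± 0.19 (adjusted p = 0.761) in air and 0.10 ± 0.13 (adjusted p = 0.731) with silica. With the ribosomal RNA share of each library in the fit these 9-month values were larger, at 0.97 ± 0.38 (adjusted p = 0.663) and 0.83 ± 0.30 (adjusted p = 0.958), and still not called. That share is the part of all counts on Rnr1 and Rnr2. At 9 months its ranges did not overlap between diets, in air or with silica, so it cannot be told apart from diet. Calls here mean an adjusted p below 0.05. The share of all genes called was 2.95% and 0.702% in the 3-month diet comparisons, 15.2% for diet in air and 3.52% for diet with silica at 9 months.

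Pgr, the receptor gene best known as an oestrogen target, rose with silica at 9 months, at few reads. On the regular diet the 5 silica rats had 1.90, 2.94, 3.38, 3.55 and 3.73 CPM (14 to 21 reads each), and the air rats a lowest, median and highest of 0.843, 1.21 and 2.45 CPM (4 to 11 reads). A single air rat lay above the lowest silica rat, so the groups overlapped. Means were 3.10 ± 0.73 CPM (SD, n = 5) and 1.38 ± 0.60 CPM (n = 6), a log2 fold change of 1.17 ± 0.25 (SE, edgeR adjusted p = 3.9e-04). On the high-fat diet the silica rats ran from 2.16 through a median of 2.62 to 4.22 CPM (10 to 20 reads), and the air rats from 0.750 through 1.08 to 1.42 CPM (5 to 9 reads). Here the groups did not overlap, with means of 2.88 ± 0.84 and 1.08 ± 0.21 CPM (SD, n = 6 each) and a log2 fold change of 1.37 ± 0.25 (edgeR adjusted p = 7.0e-05).

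Pgr passed the filter on low counts at 9 months through its silica groups, so that its place among the tested genes already favours a difference. In the fit with no filter, which admits genes whatever their level, the values were 1.17 ± 0.25 (edgeR adjusted p = 5.7e-04) and 1.36 ± 0.26 (adjusted p = 9.8e-05). With silica at 9 months, 45.1% of genes were called on regular food (24.5% higher) and 51.6% on high-fat food (26.7% higher), and 13.7% and 16.7% had all silica rats above all air rats. Pgr and Esrra, both called higher on both diets, are therefore among many genes, and the regular-diet call of Esrra was lost with the ribosomal RNA share in the fit. Across the alternatives to the test, the adjusted p of Pgr ran from 1.3e-04 to 0.018 on the regular and from 1.6e-05 to 7.3e-04 on the high-fat diet.

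At 3 months Pgr did not pass that filter. Its group means lay between 1.10 and 1.34 CPM, from 4 to 15 reads per rat, and silica and air rats overlapped on both diets. Without the filter the log2 fold changes were -0.29 ± 0.35 (edgeR adjusted p = 0.663) on the regular and -0.09 ± 0.33 (adjusted p = 0.938) on the high-fat diet. The silica effect at 9 months exceeded that at 3 months by 1.47 ± 0.41 on the regular diet (edgeR adjusted p = 0.0232, where 6.78% of genes were called) and by 1.46 ± 0.40 on the high-fat diet (adjusted p = 0.0139, 10.7% called). Pgr entered this test through its 9-month silica rats too, and with no filter the time differences were 1.45 ± 0.42 (adjusted p = 0.042) and 1.44 ± 0.41 (adjusted p = 0.0266). The regular-diet call was lost without any 1 of 4 rats of 3 months (air rats 2 and 4, silica rats 3 and 5), with adjusted p up to 0.119, and with the ribosomal RNA share in the fit (1.55, adjusted p = 0.104).

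Pgr did not differ by diet past the test at 9 months, at -0.32 ± 0.29 in air (edgeR adjusted p = 0.50) and -0.12 ± 0.22 with silica (adjusted p = 0.828). The difference of its silica effects between diets was 0.20 ± 0.36 (adjusted p = 0.865, where 1.09% of genes were called). Silica rat 2 of each diet was the highest of its 9-month group for Pgr (3.73 and 4.22 CPM) and for Esr1 (118.98 and 107 CPM). High-fat silica rat 2 had the smallest library of all 42 rats (3078216 counts), and its Pgr value rests on 12 reads. The lowest silica rat was not the same for the 2 genes on either diet. After each group's mean was subtracted, the Pearson r of Pgr with Esr1 over the 42 rats was 0.096.

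Esrra, the energy-metabolism regulator, was higher with silica at 9 months on both diets. Regular-diet silica rats averaged 25.9 ± 3.4 CPM (SD, n = 5, 21.2 to 28.9) and air rats 18.9 ± 3.5 CPM (n = 6, 15.5 to 25.1), a log2 fold change of 0.48 ± 0.14 (edgeR adjusted p = 0.00674). That call was lost with the ribosomal RNA share in the fit (0.35, adjusted p = 0.212). On the high-fat diet they were 25.6 ± 5.2 CPM (n = 6, 18.95 to 31.0) and 18.0 ± 3.0 CPM (n = 6, 14.8 to 23.1), a log2 fold change of 0.50 ± 0.13 (adjusted p = 0.00308). The highest air rats reached into the silica range on both diets.

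The 3-month silica difference of Esrra was smaller and near the threshold. On the regular diet the air rats had 18.0 to 25.8 CPM and the silica rats 25.0 to 33.0 CPM, overlapping slightly, with means of 22.2 ± 3.2 (SD, n = 4) and 28.7 ± 3.3 CPM (n = 5). The log2 fold change of 0.37 ± 0.11 was called (edgeR adjusted p = 0.0258, where 16.8% of genes were called, 10.2% higher). That call was lost without air rat 1 or 3 or silica rat 3 or 5 (adjusted p up to 0.119), and once the fit held the ribosomal RNA share (0.28, adjusted p = 0.094). On the high-fat diet, silica rats at 30.2 ± 2.3 CPM and air rats at 25.1 ± 3.5 CPM (n = 5 each) gave 0.28 ± 0.10, which was not called (adjusted p = 0.0658, where 17.4% of genes were called) but was without air rat 3 (0.36, adjusted p = 0.0169). Neither time difference of Esrra was called (0.10 and 0.22, adjusted p = 0.809 and 0.459), and none of its diet contrasts was. Esrra overlaps Trmt112, a tRNA methyltransferase cofactor, in the GRCr8 annotation, so reads of the overlap may be shared.

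Esr2 was near the detection limit, with 0 to 6 reads per rat, and failed the filter on low counts at both times. Its 9-month group totals were 11 reads (air) and 5 reads (silica) with regular food, and 14 reads (air) and 3 reads (silica) with high-fat food. No high-fat silica rat had more than 1 read and no high-fat air rat had fewer than 1. Without the filter its silica log2 fold changes were -0.83 ± 0.68 (edgeR adjusted p = 0.421) and -1.70 ± 0.71 (adjusted p = 0.0609, unadjusted p = 0.0211), and neither was called. In CPM the high-fat silica rats, at most at 0.218, all lay below the high-fat air rats, at least at 0.225, a gap that rests on rats with 1 read on each side.

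Other receptors of the steroid branch were lower with silica at 9 months or not called. Those described are Nr3c1 (the glucocorticoid receptor), Nr3c2 (the mineralocorticoid receptor), Esrrb and Esrrg. All 4 had a negative log2 fold change on both diets, and 3 were called lower on the regular diet and 4 on the high-fat diet, where 20.6% and 24.9% of all genes were called lower. Regular-diet silica rats had Nr3c1 at 328 ± 11.1 CPM (SD, n = 5) and air rats at 415 ± 19.8 CPM (n = 6), a difference of -0.33 ± 0.04 on the log2 scale (edgeR adjusted p = 5.8e-07), and on the high-fat diet it differed by -0.42 ± 0.04 (adjusted p = 3.9e-09). Nr3c2 differed by -0.54 ± 0.05 and -0.52 ± 0.05, with all silica rats below all air rats on both diets, as 9.97% and 12.9% of genes were. Esrrb differed by -1.02 ± 0.24 and -0.94 ± 0.27, from means of 1.70 to 5.16 CPM. Esrrg was called lower on the high-fat diet alone (-0.91 ± 0.33, adjusted p = 0.023). At 3 months Nr3c1 was already lower, by -0.18 ± 0.05 and -0.17 ± 0.05, and Nr3c2 by -0.34 ± 0.08 on the regular diet.

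**Figure D2:**
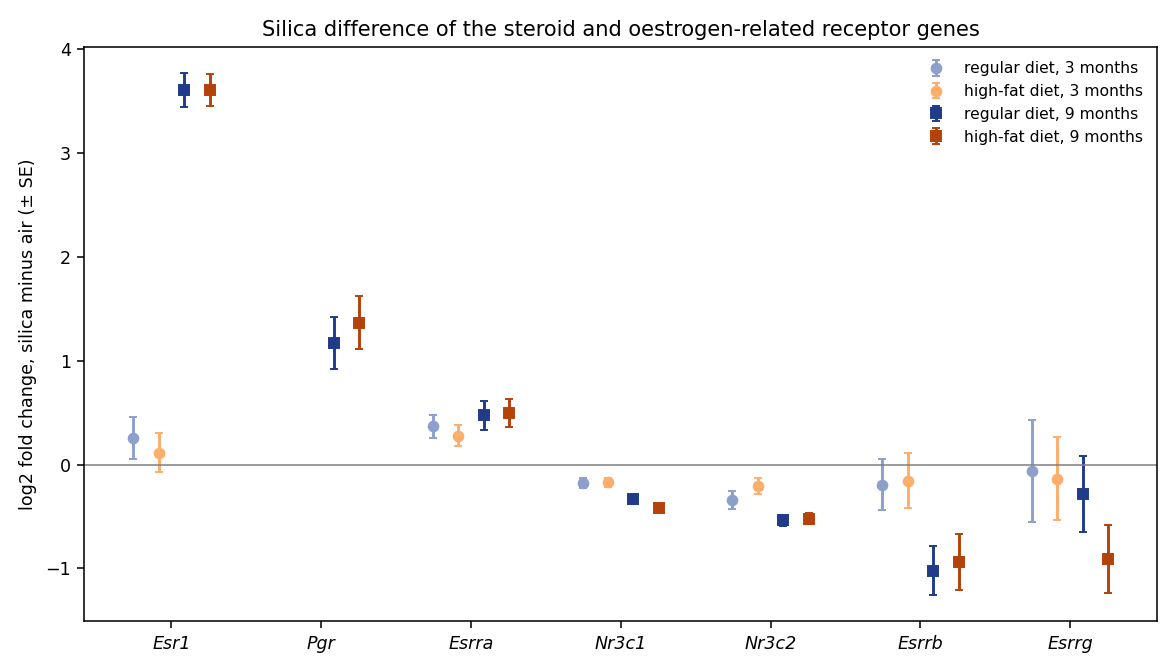
Log2 fold change of silica minus air with its SE for 7 steroid and oestrogen-related receptor genes, for each diet and time. Esr1 lies at 3.61 on both diets at 9 months, Pgr at 1.17 and 1.37 and Esrra at 0.48 and 0.50, and Nr3c1, Nr3c2 and Esrrb lie below 0 at 9 months.

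Receptors for retinoids, thyroid hormone, vitamin D, lipids and orphan ligands were called in both directions, with smaller log2 fold changes than Esr1. Of 39 such genes 32 were tested at 9 months, and 2 were called higher and 6 lower on the regular diet, 6 higher and 11 lower on the high-fat diet. Over all genes tested 45.1% and 51.6% were called, so 8 of 32 is below that share and 17 of 32 near it. Their median log2 fold change was -0.04 and -0.14, against 0.0045 and 0.00056 over all genes. Vdr, the vitamin D receptor, rose by 0.75 ± 0.14 and 0.62 ± 0.14, and Nr1h3, the oxysterol receptor LXR alpha, rose by 0.29 ± 0.05 on the high-fat diet. Rarb, a retinoic acid receptor, fell by 0.83 ± 0.08 and 0.68 ± 0.08 on the log2 scale, and Thra, a thyroid hormone receptor, by 0.48 ± 0.08 and 0.38 ± 0.07. Rorb, a retinoid-related orphan receptor, fell by 1.30 ± 0.23 on the high-fat diet.

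**Figure D3:**
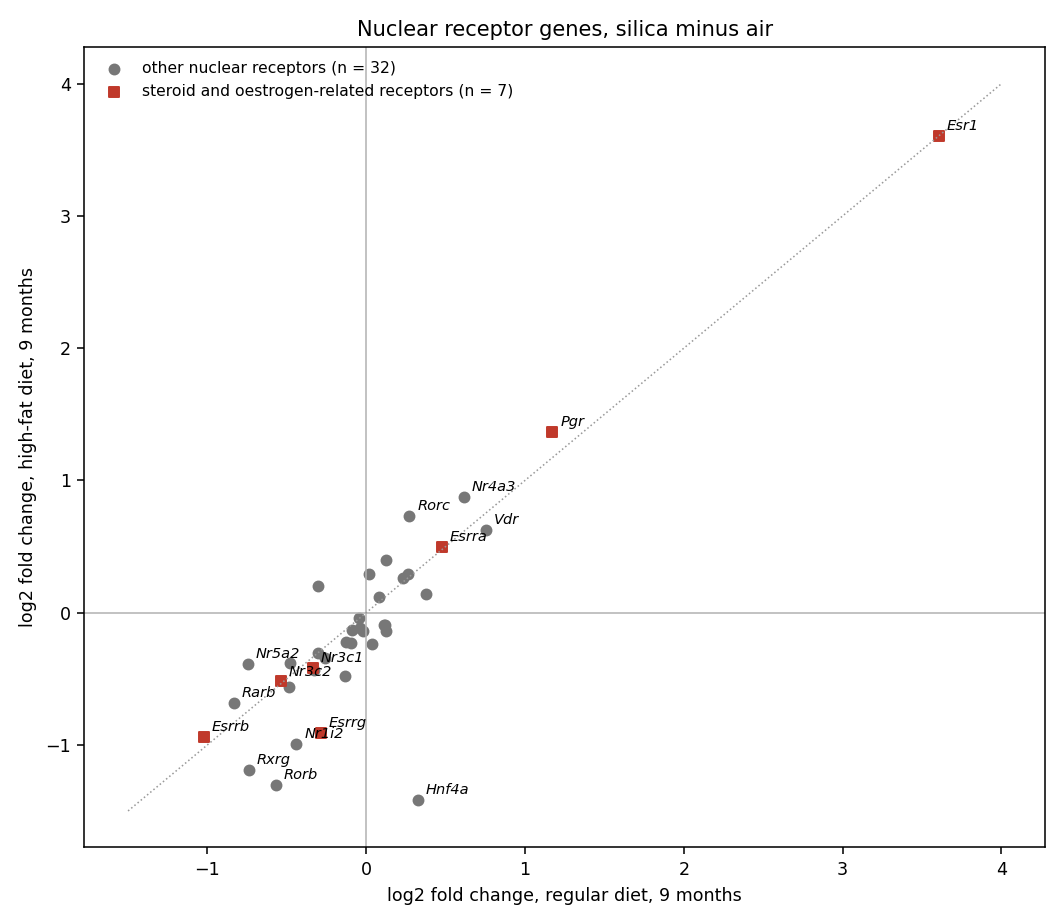
Silica log2 fold change at 9 months on the regular diet (horizontal axis) and on the high-fat diet (vertical axis), 1 point per nuclear receptor gene, with the dotted line marking equal values. Esr1 is far from the rest at 3.61 on both axes, followed by Pgr at 1.17 and 1.37.

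Receptors that bind steroids at membranes showed small or low-level differences. Of 8 tested, 2 were called higher and 1 lower on each diet at 9 months, which is no more than the 45.1% and 51.6% of all genes called. Paqr5, a membrane progestin receptor, rose by 1.71 ± 0.32 and 1.08 ± 0.25, from 0.614 and 1.19 CPM in air, and Paqr8, another of that family, by 0.53 ± 0.10 and 0.37 ± 0.10. At those air levels Paqr5 may have passed the filter on low counts through its silica rats, which favours a higher call. Pgrmc1, a haem-binding protein also described as a progesterone-binding component, fell by 0.42 ± 0.05 and 0.30 ± 0.05.

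Genes of proteins that work with the receptor differed by less than 1 on the log2 scale where they are named here. Of 19 coactivators 5 were called higher and 2 lower on the regular diet, and 5 and 3 on the high-fat diet, below the 45.1% and 51.6% of all genes called. Ppargc1a, the partner of Esrra, fell by 0.96 ± 0.13 on the high-fat diet (edgeR adjusted p = 1.2e-06) at 9 months and by 0.55 ± 0.14 on the regular diet at 3 months. It was not called on the high-fat diet at 3 months, and its regular-diet value at 9 months is not given here. Ddx5, an RNA helicase, fell by 0.23 ± 0.04 and 0.27 ± 0.04. Of 12 corepressors 3 and 5 were called higher, among them Safb2 on the regular and Phb2 on the high-fat diet (0.23 ± 0.06 and 0.34 ± 0.05). Of 11 chaperones 6 were called higher on the regular diet, with Hsp90ab1 at 0.45 ± 0.07, and 4 were higher and 3 lower on the high-fat diet, with Fkbp5, a co-chaperone that glucocorticoids induce, at -0.82 ± 0.20. Of 8 DNA-binding factors that open or share oestrogen receptor sites, 3 were higher and 2 lower on each diet. Runx1 rose by 0.45 ± 0.07 and 0.55 ± 0.06 and Xbp1 by 0.32 ± 0.05 and 0.44 ± 0.05. For these lists too the shares over all genes were 24.5% higher and 20.6% lower on the regular diet, and 26.7% higher and 24.9% lower on the high-fat diet.

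Genes listed for steroid synthesis and oestrogen metabolism were called higher more often than lower. The list includes Star and Shbg, which are not enzymes, and some of its enzymes also act on other lipids. Of 16 tested genes 7 were called higher and 1 lower on the regular diet, and 13 and 1 on the high-fat diet, with medians of 0.17 and 0.41 on the log2 scale. Over all genes 24.5% were called higher and 20.6% lower on the regular diet, and 26.7% and 24.9% on the high-fat diet, with medians of 0.0045 and 0.00056. Cyp19a1, the aromatase that makes oestrogen, had 1 read in all 3-month rats together and 0 in all 9-month rats. Srd5a1, a steroid 5-alpha-reductase, rose by 1.01 ± 0.11 and 1.34 ± 0.11 at 9 months and by 0.89 ± 0.14 and 1.17 ± 0.12 at 3 months. Srd5a2, a related reductase, was at 1.11 ± 0.41 CPM (SD, n = 5) in silica rats against 0.115 CPM in air rats on regular food, and at 2.56 ± 1.20 CPM (n = 6) against 0.098 CPM on high-fat food, with so few air reads that no fold is given. It had 1 read in all 3-month rats and at most 16 in any 9-month rat, and it is among the genes counted above only because its silica rats passed the filter. With no filter it was also called higher (edgeR adjusted p = 4.3e-04 and 1.4e-08). Hsd17b1, which reduces oestrone to oestradiol, was called higher on the high-fat diet (1.11 ± 0.28, adjusted p = 0.0017) from 1.21 to 2.77 CPM.

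Genes known as oestrogen receptor targets in other tissues gave a mixed picture. Of 27 tested, 11 were called higher and 3 lower on the regular diet, and 13 higher and 5 lower on the high-fat diet at 9 months, with medians of 0.15 and 0.30. Of all genes 24.5% were called higher and 20.6% lower on the regular diet, and 26.7% and 24.9% on the high-fat diet. C3, a complement and acute-phase gene, rose by 2.11 ± 0.11 and 2.80 ± 0.11. Ctsd, a lysosomal protease, rose by 1.01 ± 0.10 and 1.65 ± 0.10, and Slc7a5, an amino acid transporter, by 1.31 ± 0.11 and 1.49 ± 0.11. Adora1, an adenosine receptor, rose by 2.63 ± 0.35 and 2.58 ± 0.31, to 4.63 ± 1.47 and 5.60 ± 1.32 CPM. It had at most 18 reads in any 3-month rat and 45 in any 9-month rat. With so few reads in air, Adora1 may have passed the filter on low counts through its silica rats, which favours a higher call. Among targets called lower, Hspb8, a small heat shock protein, fell by 0.42 ± 0.12 and 0.41 ± 0.11, Wisp2, a secreted matrix-associated protein, by 0.44 ± 0.07 on the regular diet, and Ccnd1, cyclin D1, by 0.39 ± 0.09 on the high-fat diet. Tff1, a classical target in breast cells, had 0 reads in every rat, and Greb1, another, had 38 reads in all 3-month rats and 53 in all 9-month rats and was not tested. Part of the list was called at 3 months too. Of 26 targets tested then, 7 were higher on each diet, where 10.2% (regular) and 9.23% (high-fat) of all genes were, and 1 was lower on the high-fat diet. C3 was at 1.91 ± 0.10 and 2.35 ± 0.09. Any link between Esr1 and these genes was not tested.

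**Figure D4:**
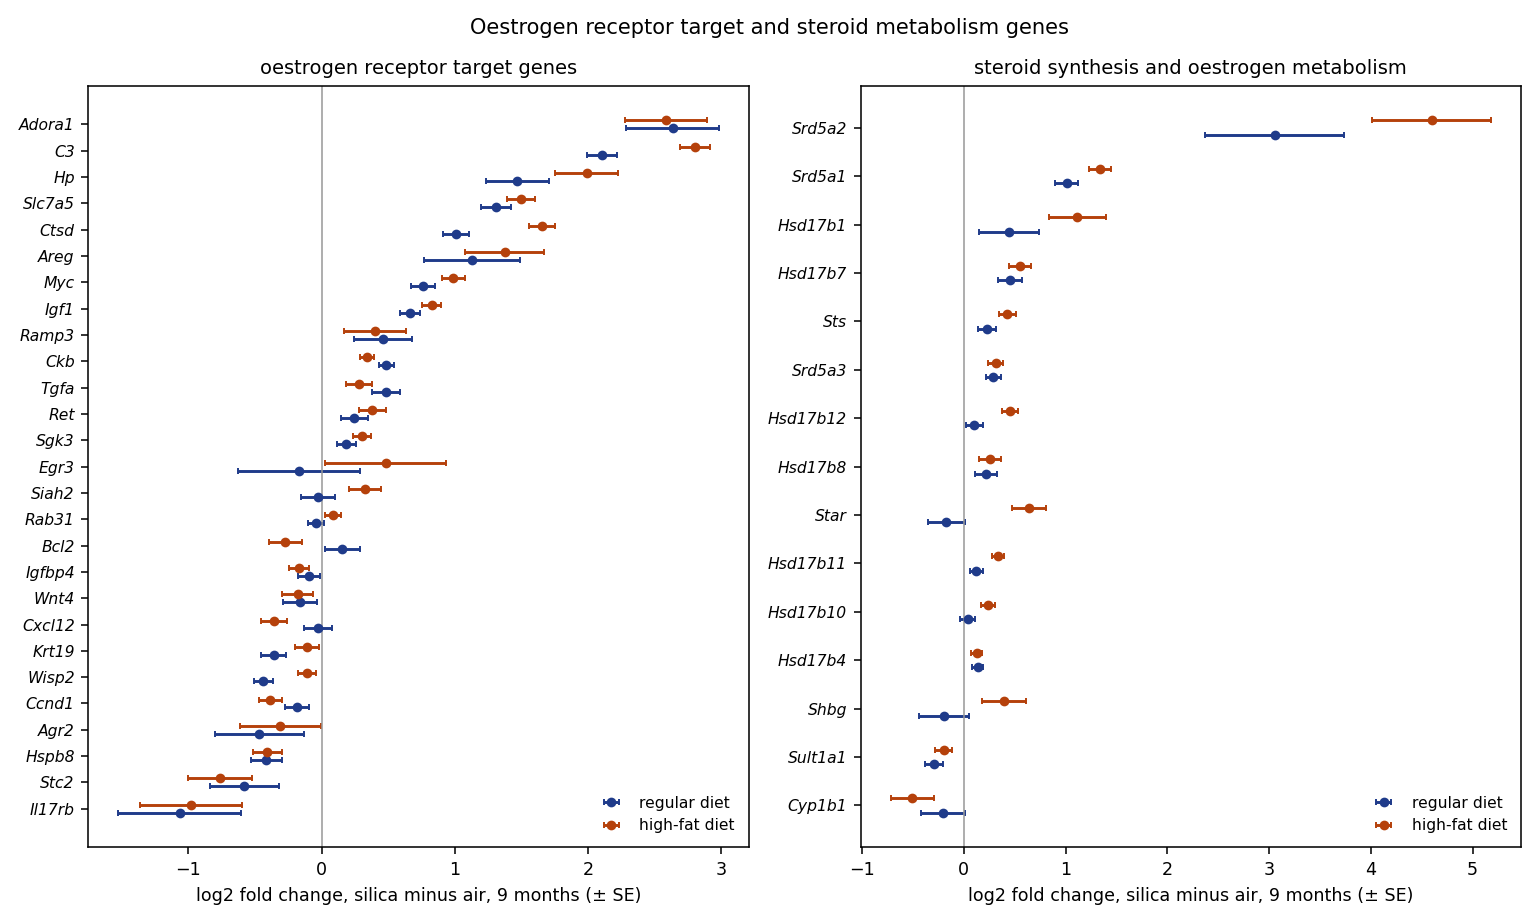
Log2 fold change of silica minus air at 9 months with its SE on each diet, for tested oestrogen receptor target genes and for reported genes of steroid synthesis and oestrogen metabolism. Members lie on both sides of 0, with C3 (2.11 and 2.80) and Adora1 (2.63 and 2.58) among the higher targets and Srd5a1 (1.01 and 1.34) among the higher enzymes. Adora1 has few reads in air and may have passed the filter on low counts through its silica rats.

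Genes known to respond to the progesterone receptor moved in both directions. Of 12 tested, 2 were called higher and 3 lower on the regular diet, and 2 and 7 on the high-fat diet, where 45.1% and 51.6% of all genes were called. Zbtb16, a transcription factor also induced by glucocorticoids, fell by 2.04 ± 0.15 on the high-fat diet, and Klf15, likewise, by 0.81 ± 0.12 and 1.27 ± 0.13, whereas Sgk1, a kinase, rose by 0.44 ± 0.05 and 0.56 ± 0.05. Of 24 genes tied to Esrra, itself included, 3 were higher and 1 lower on the regular diet and 8 and 4 on the high-fat diet, below and near those shares. Idh3a, a citric acid cycle enzyme, rose by 0.39 ± 0.06 and 0.20 ± 0.06, and Vegfa, the endothelial growth factor, fell by 0.48 ± 0.06 and 0.51 ± 0.06.

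Of 7 tested genes on a list of genes near Esr1 on the chromosome, 1 was called higher and 4 lower on the regular diet, and 2 and 3 on the high-fat diet, where 45.1% and 51.6% of all genes were called (20.6% and 24.9% lower). The list leaves out Myct1, Vip and Fbxo5, which follow Syne1 in the GRCr8 annotation, so it does not cover all near genes. Syne1, the next gene downstream, fell by 0.58 ± 0.06 and 0.49 ± 0.06 on the log2 scale at 9 months, and Akap12, further off, by 0.69 ± 0.09 and 0.79 ± 0.09. Ccdc170, the next gene upstream, was not called (0.20 ± 0.20 and 0.03 ± 0.19, edgeR adjusted p = 0.43 and 0.91). In the GRCr8 annotation a long non-coding RNA gene and a small nucleolar RNA gene overlap Esr1, and reads of these cannot be told apart from its own without the strand setting of the counting, which is not given in the sources used here.

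The genes whose log2 level was most like that of Esr1 over the 42 rats, of 13084 candidates with a mean of at least 1 CPM, were Pcdh9 (Pearson r = 0.960), Tmtc1 (0.958), Asic2 (0.953), Man2a1 (0.948), Stx18 (0.947), Kng1 (0.947), Chia (0.946) and Stk10 (0.945). Pcdh9 is a protocadherin, Asic2 an acid-sensing ion channel, Kng1 kininogen and Chia the acidic chitinase. Regular-diet rats of 9 months averaged 129.5 CPM of Chia in air and 2256 CPM after silica, and 4.84 and 43.7 CPM of Kng1. These r describe shared group differences: after each group's mean was subtracted they lay between 0.31 and 0.68, and all genes' points come from the same 42 libraries. Within the 23 rats of 9 months r was 0.95 to 0.99 for the 8 genes, and within the 19 rats of 3 months 0.21 to 0.60. Pgr had r = 0.813 over the 42 rats and ranked 526, with r = 0.855 within the rats of 9 months, -0.166 within those of 3 months and 0.096 after each group's mean was subtracted.

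The genes Rnr1 and Rnr2, whose part of all counts is the ribosomal RNA share here, made up more of the libraries with silica at 9 months. That share therefore moved with the receptor differences, and ribosomal RNA of other genes is not in it. Means were 1.22% (air) and 3.67% (silica) for regular food and 6.21% and 7.66% for high-fat food (exact permutation test, 2-sided, adjusted p = 0.00866 each). With regular food silica rats had 2.60 to 5.35% and air rats 0.375 to 2.29%. With high-fat food they had 7.29 to 7.85% and 4.62 to 7.19%. The ranges did not overlap on either diet, so share and silica cannot be told apart within a diet. The part of the share in the receptor differences was not tested. With the share in the fit, the Esr1 difference was 4.02 ± 0.21 and 3.87 ± 0.17, the Pgr difference 1.22 ± 0.38 (edgeR adjusted p = 0.018) and 1.40 ± 0.31 (adjusted p = 7.3e-04), and the Esrra difference on the regular diet 0.35 and not called.

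**Figure D5:**
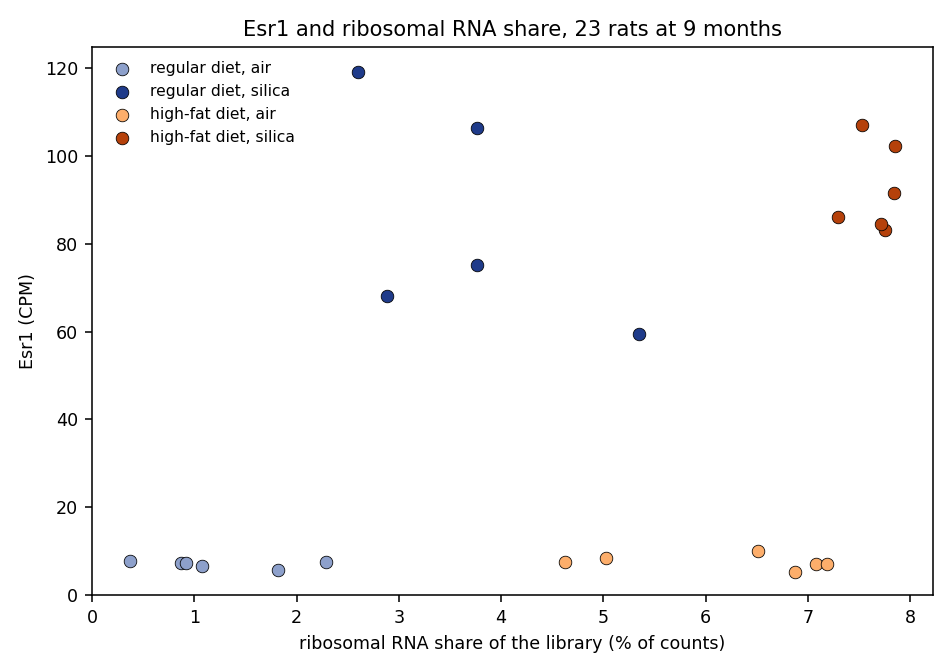
Esr1 in CPM against the ribosomal RNA share (Rnr1 and Rnr2) in percent of counts, 1 point per rat, 23 rats at 9 months, coloured by diet and exposure. With regular food air rats lie at 0.375 to 2.29% and silica rats at 2.60 to 5.35%. With high-fat food they lie at 4.62 to 7.19% and 7.29 to 7.85%. Esr1 is at most 10.1 CPM in air rats and at least 59.4 CPM in silica rats.

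Cell type markers moved with the silica groups as well, and in bulk lung fewer cells of a type and less RNA per cell cannot be told apart. Over all genes at 9 months, 24.5% were called higher and 20.6% lower with silica on the regular diet. On the high-fat diet these shares were 26.7% and 24.9%. At 9 months 5 of 7 alveolar type 2 markers were called higher on the regular and 6 of 7 on the high-fat diet, and their summed level went from 17207 to 25119 CPM in air to 27850 to 33737 CPM with silica, and from 14895 to 18694 to 29850 to 38428 CPM. Of 8 monocyte and interstitial macrophage markers 6 and 7 were higher (sums of 445 to 522 CPM in air and 632 to 754 CPM with silica, and 390 to 412 and 600 to 692 CPM). All 7 neutrophil markers on the regular diet and 5 of 7 on the high-fat diet were higher (122.5 to 403 and 564 to 1492 CPM, and 180 to 311 and 967 to 1234 CPM). Fibroblast markers were lower in 6 and 7 of 8, with sums of 1267 to 1418 in air and 881 to 1078 CPM with silica on the regular diet, and endothelial markers in 7 and 8 of 8. At 3 months, with Esr1 at 4.79 to 9.21 CPM in silica rats, alveolar type 2 sums were already 23950 to 32126 CPM with silica against 16632 to 19919 CPM in air on the regular diet, and neutrophil sums 527 to 803 against 137.8 to 183 CPM. The sums of other lists separated silica from air at 9 months and overlapped at 3 months. With silica the adipocyte sum was higher, as Esr1 was, and the mast cell and the smooth muscle and pericyte sums were lower. The summed level of 6 adipocyte markers was 25.2 to 45.3 CPM in air and 97.3 to 158.9 CPM with silica on the regular diet, and 19.05 to 30.2 and 95.03 to 131.3 CPM on the high-fat diet, and 2 of 3 tested were called higher on each. Most of that sum was Fabp4, which is also on the alveolar macrophage list (107.9 and 100.2 CPM in silica rats). Of 6 tested mast cell markers 4 and 3 were called higher, among them Cpa3 and Tpsb2, and 1 (Kit) lower. At 3 months only 2 mast cell markers passed the filter on low counts, so the 9-month calls may include markers admitted by their silica rats. The sums, mostly Kit, were 273 to 391.8 CPM in air and 179 to 259 CPM with silica on the regular diet. On the high-fat diet they were 343 to 415 and 228 to 262 CPM. Smooth muscle and pericyte markers were lower in 7 and 8 of 8. Their regular-diet sums at 3 months overlapped only slightly, with a lowest of 807.3 CPM in air and a highest of 807.9 CPM with silica. The part of any cell type in the receptor differences was not tested.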

How the data were processed

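The authors deposited 1 table per time point with whole-number read counts per gene symbol and rat. Per the submitters' processing notes, the tools were HTSeq 0.6.1, SAMtools 0.1.19, TopHat2 2.0.9, Trimmomatic 0.35, Bowtie2 2.2.9 and bcl2fastq 2.19, and the build was Rnor_6.0. The annotation and the strand setting are not given in the sources used here. Per the labels' protocols, libraries were made with a stranded kit for total RNA. Rats were assigned to groups by their labels. The members and gene lists were chosen with earlier results of these data known.

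Quasi-likelihood models of edgeR 4.0.16 (R 4.3.3, TMM scaling, filterByExpr with a minimum count of 10) were fitted to the 4 groups of a time point over 15234 (3 months) or 15276 genes (9 months), and to all 8 groups over 15759 genes for time differences, with Benjamini-Hochberg adjustment over all of these genes. The SE is that implied by the F statistic. Levels in CPM were scaled over all 42 rats. Likeness to Esr1 used log2 CPM with a prior count of 2. Named genes are the 4 members, the called members of each list with the 3 smallest p in a silica or diet comparison, partners and ligand enzymes named in the background, and the 8 genes most like Esr1. Esrrg, Adora1, Hsd17b1 and other genes or values outside that rule were chosen after their values were seen. Some genes of the lists are not reported here. Of 341 listed symbols 327 were in both tables. RefSeq promoters (GRCr8) matched all 4 members. No 2 rats of a group had counts within sampling noise (chi-square per degree of freedom at least 1.99 in 91 pairs). The fits were tested on simulated data. Alternatives were RLE scaling, no filter, legacy=TRUE, DESeq2 1.42.0, limma 3.58.1 voom with sample weights, other sets of groups, leaving out the ribosomal RNA rows, the ribosomal RNA share as a covariate, and leaving out each rat.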

Additional observations from a re-analysis of the deposited data

Results flagged for a closer look

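Pgr in rat 1 of the regular-diet silica group at 3 months was at 1.81 CPM (12 reads), above the other 4 rats of that group at 0.797 to 1.07 CPM by more than the 95% limit of Dixon's test. It was the only such rat in 32 groups (4 genes in 8 groups), and chance flags about 1 group in 20.

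The silica effect on Pgr differed between the times on both diets, by 1.47 ± 0.41 (edgeR adjusted p = 0.0232) on the regular and 1.46 ± 0.40 (adjusted p = 0.0139) on the high-fat diet, on the log2 scale at 9 minus 3 months. Pgr failed the filter on low counts at 3 months and entered this test through its 9-month silica rats. With no filter the adjusted p was 0.042 and 0.0266. Leaving out that rat 1 did not end the regular-diet call, whereas leaving out air rat 2 or 4 or silica rat 3 or 5 of 3 months did, as did the ribosomal RNA share in the fit (adjusted p = 0.104). The differences of silica effects tested for Esrra, and the diet difference for Pgr, were not called.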

How the results depend on the processing

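Under RLE size factors, no filter, legacy=TRUE, DESeq2, voom, other sets of groups and without the ribosomal RNA rows, every called difference of Pgr and Esrra kept its direction and its call, except that DESeq2 gave no adjusted p for the Pgr time difference on the regular diet. With voom, 2 values not called changed sign: Esr1 by diet with silica at 3 months (0.0026) and the diet difference of the silica effect on Esrra at 9 months (-0.034). With the ribosomal RNA share in the fit, Esrra with silica was 0.28 on the regular diet at 3 months (adjusted p = 0.094) and 0.35 at 9 months (adjusted p = 0.212), both no longer called, and 0.34 on the high-fat diet at 3 months, now called (edgeR adjusted p = 0.0199). Its diet difference at 3 months turned to 0.056, the Esr1 time difference on the regular diet moved to 3.8001 and that of Pgr was 1.55 and no longer called (adjusted p = 0.104). Igf1 and Fkbp5 by diet with silica at 9 months turned to 0.0469 and 0.0458. At 9 months the share did not overlap between silica and air rats on either diet. It did not overlap between diets either, in air or with silica. Share and group cannot be told apart there, and the cause of these changes was not tested. Leaving out 1 rat at a time gave these ranges: Esrra with silica at 3 months 0.281 to 0.455 (regular) and 0.233 to 0.362 (high-fat); Esr1 by diet at 3 months -0.0412 to 0.187 (air) and -0.178 to 0.0313 (silica); Esrra by diet at 9 months -0.142 to 0.0428 (air) and -0.109 to 0.0467 (silica); the diet difference of its silica effect -0.0771 to 0.109; and time differences on the regular diet of 1.19 to 1.66 for Pgr and -0.010 to 0.175 for Esrra. Of 172 called differences of list genes, 53 lost their call and 2 changed sign with that share in the fit, and none did with RLE. No paired analysis was possible because the rats' tags were not shared between groups. Depth limits Esr2 (0 to 6 reads per rat) and Pgr (4 to 21).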
